A study of Rattus norvegicus with 23 samples.

Results

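Brain-derived neurotrophic factor (Bdnf, ENSRNOG00000047466) and its receptor tyrosine kinase B (Ntrk2, ENSRNOG00000018839, also called TrkB) were followed in the dorsal striatum of single rats. These 2 genes were taken by identifier and chromosome from the 32552 genes listed in each library, and both were among the 16275 genes that passed the filter on low counts. RNA came from 23 adult male Long Evans rats, 1 library per rat, with no genetic modification. The METH rats had pressed a lever for methamphetamine (METH) at 0.1 mg/kg per infusion, had received, for 8 days and on part of their rewarded presses, footshocks that rose from 0.18 mA up to 0.36 mA, and after 15 days of abstinence had self-administered METH again for 12 days. A second run of footshocks, of 0.30 mA on 3 days, came late in this second period or just after it, since the sources differ on the timing. By the labels the first training had lasted 22 days. By their pressing under shock the labels class 6 rats as METH Shock Resistant (always shock-resistant, ASR), 5 as Resurgence METH Shock Resistant (delayed shock-resistant, DSR) and 6 as METH Shock Sensitive (always sensitive, AS). The 6 control rats (CT) had self-administered saline in both periods and received no footshock, so METH and footshock cannot be told apart in comparisons with CT. All rats were killed after a second abstinence period of 15 days that ended with a drug seeking test. The ASR, DSR and AS groups were formed from behavior and not by random assignment, and the animals' individual intake was not analysed here.

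BDNF is a secreted neurotrophin that binds TrkB, whose intracellular kinase then starts the Ras-ERK, PI3K-Akt and phospholipase C gamma pathways. Neurons switch Bdnf transcription on with activity, from several promoters that splice different first exons to a shared coding exon. Striatal neurons make little Bdnf mRNA, and most BDNF protein in the striatum arrives in axons of cortical neurons. TrkB mRNA is abundant in neurons and glia, and astrocytes mainly carry a truncated TrkB that lacks the kinase.

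On the Rnor6.0 genome used for counting, Bdnf spans chromosome 3 from 100768637 to 100819210 on the plus strand. Its 17 exon entries merge into 9 blocks with a total length of 6068 bases, of which the last block, 3652 bases present in 8 entries, makes up 60.2%. Ntrk2 spans chromosome 17 from 5933729 to 6244676 on the minus strand, with 50 exon entries in 20 blocks and 10685 exonic bases. A block of 4862 bases, 45.5% of the exonic length of Ntrk2, is listed once, so it belongs to 1 of the annotated transcripts. No other gene in the files overlaps either of them. Counts are per gene, so first exons of Bdnf and the full-length and truncated forms of TrkB are merged in all values below.

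The 5′ ends of Bdnf are shown because they are where its transcription is controlled and because their spacing ties the identifier to the gene. RefSeq windows on the GRCr8 genome, each from 250 bases before to 50 bases after a start, exist for 6 Bdnf starts, and the distances between all 6 equal the distances between 6 exon starts in the files. The first and the fourth of these windows, on the plus strand, are chr3:116619383-116619682 and chr3:116637608-116637907. Capitals mark TCACGTCA, the spelling of the cyclic AMP response element known from the activity-driven Bdnf promoter.
Bdnf start 1: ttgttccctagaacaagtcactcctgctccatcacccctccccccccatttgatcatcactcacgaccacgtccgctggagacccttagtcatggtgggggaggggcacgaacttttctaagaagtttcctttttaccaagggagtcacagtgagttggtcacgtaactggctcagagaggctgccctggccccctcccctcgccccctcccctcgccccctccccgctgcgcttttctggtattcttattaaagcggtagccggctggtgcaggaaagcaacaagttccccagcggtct
Bdnf start 4: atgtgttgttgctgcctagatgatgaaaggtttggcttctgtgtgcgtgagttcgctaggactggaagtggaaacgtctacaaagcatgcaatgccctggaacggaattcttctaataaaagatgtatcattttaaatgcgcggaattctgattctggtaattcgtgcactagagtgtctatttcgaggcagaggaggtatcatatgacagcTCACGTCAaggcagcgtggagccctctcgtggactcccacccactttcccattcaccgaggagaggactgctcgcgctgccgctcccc
This motif, searched on both strands, begins at position -38 from the fourth start and was found in 1 of the 6 Bdnf windows and in 0.402% of 33365 rat promoter windows. The palindromic element TGACGTCA, held by 1.83% of windows, was in 0 of the 6. The E-box CACGTG, held by 6.43% of windows, was in 1 of the 6, at position 19 from the second start. These matches describe the sequence alone, because the counts do not separate transcripts by promoter.

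Bdnf, the ligand, had low and widely scattered levels. Levels are in CPM, a gene's count relative to the size of its library after scaling by TMM, a normalization that assumes most genes do not differ. In CT rats Bdnf ranged from 5.35 to 13.9 CPM with a median of 7.40 (n = 6). In ASR rats it ranged from 2.99 to 9.19 CPM with a median of 5.03 (n = 6). The 5 DSR rats had 2.45, 2.68, 10.5, 11.1 and 19.5 CPM, so that 2 of them were below every CT rat and 1 was above every CT rat. The 6 AS rats had 0.253, 0.301, 1.09, 1.18, 4.18 and 13.3 CPM. In the AS group 4 of 6 rats were below every one of the 17 other rats, 5 of 6 were below every CT rat, and the remaining one, rat Grp7-L10, lay within the upper part of the CT range. The 2 lowest AS rats each had 6 Bdnf counts (exact Poisson 95% interval 2.20 to 13.1, counting error only), and rat Grp7-L10 had 308, which was 67.2% of all Bdnf counts of its group. In means, Bdnf was 9.24 ± 7.07 CPM (SD, n = 5) in DSR, 8.88 ± 3.35 (SD, n = 6) in CT, 5.72 ± 2.31 (SD, n = 6) in ASR and 3.38 ± 5.07 (SD, n = 6) in AS rats. Neighbors in this order did not differ beyond their spread in the fit of all groups or the exact permutation tests below. Fits of only ASR and CT rats gave an unadjusted p under 0.05, given below.

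**Figure D1:**
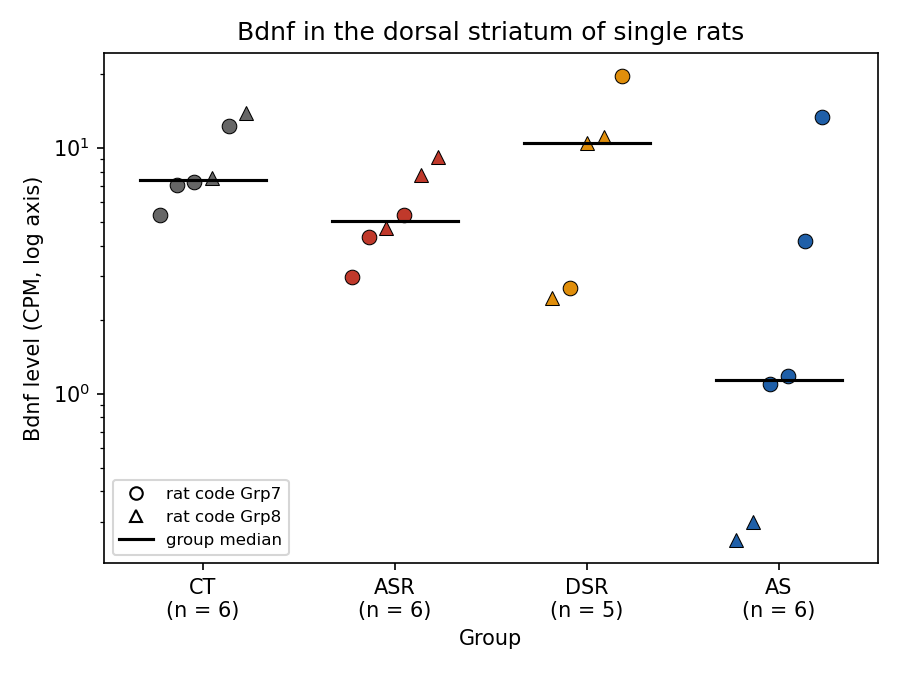
Bdnf level in CPM on a log axis for each of the 23 rats, by group. Circles are rats coded Grp7, triangles rats coded Grp8, and black lines are group medians, with 4 of 6 AS rats below all others and AS rat Grp7-L10 at 13.3 CPM.

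Ntrk2, the receptor, was abundant and nearly level across rats. Its range was 656 to 794 CPM in CT (median 714, n = 6) and 657 to 795 CPM in ASR rats (median 738, n = 6). The DSR rats had 656, 718, 743, 753 and 826 CPM. The AS rats ranged from 658 to 807 CPM with a median of 726 (n = 6). The 4 ranges overlapped almost fully, and the highest of the 23 rats was 1.26 times the lowest. The group means were 719 ± 58.9 CPM in CT, 730 ± 49.9 in ASR, 739 ± 61.3 in DSR and 735 ± 53.5 in AS rats (SD), an order in which no neighbors differed beyond their spread. For Bdnf the same ratio of highest to lowest rat was 77.1.

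**Figure D2:**
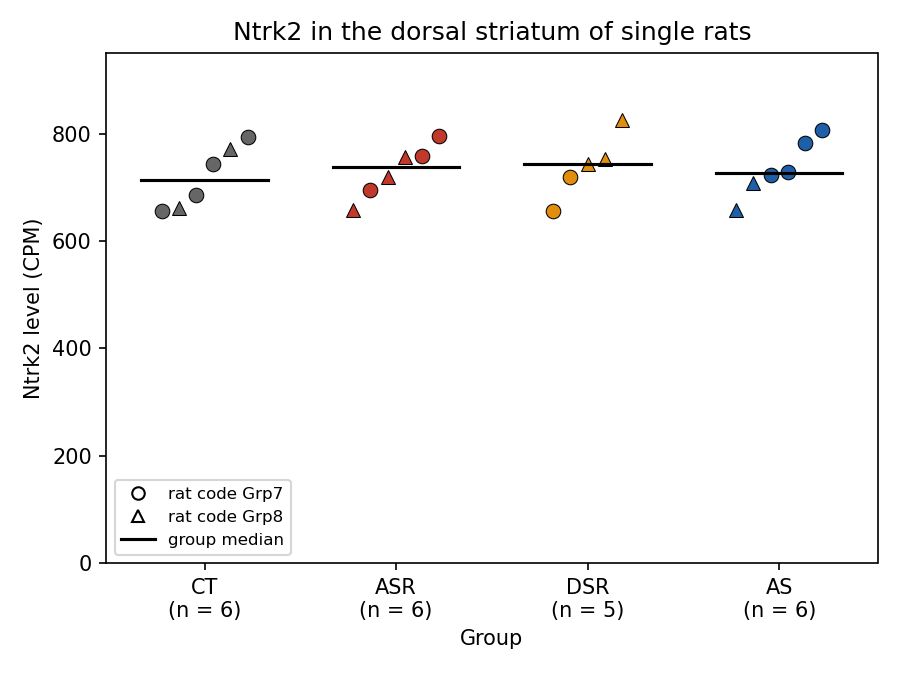
Ntrk2 level in CPM for each rat by group, on an axis that starts at 0, with circles for rats coded Grp7, triangles for rats coded Grp8 and black lines for medians. The 23 rats lie between 656 and 826 CPM.

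Against the other genes, the scatter of Bdnf was unusual and that of Ntrk2 was not. The SD of log2 CPM within groups was 1.27 for Bdnf, larger than for 99.7% of the 16275 genes, and among 3311 genes within 2-fold of its mean level it was larger than for 99.5%. Genes at that level had a median SD of 0.230. Group by group, the SD of Bdnf was 2.04 in AS and 1.32 in DSR rats, against 0.579 in ASR and 0.518 in CT rats. For Ntrk2 the SD was 0.11, larger than for 21.6% of all genes and for 31.8% of the 283 genes at its level. Ntrk2 had a mean of 730 CPM, higher than 99.3% of genes, and Bdnf a mean of 6.70 CPM, higher than 32.2%. Per kilobase of exon, the level of Ntrk2 was 54.6 times that of Bdnf in the median CT rat, 85.7 in ASR, 40.3 in DSR and 378 in AS rats, in which this ratio ran from 30.9 to 1588. The groups overlapped in this ratio.

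The comparisons asked whether the ligand or the receptor was expressed differently between rats that cut down their METH taking under punishment and rats that did not. With edgeR's quasi-likelihood test over all groups and Benjamini-Hochberg adjustment, neither gene passed an adjusted p of 0.05 in any of the 6 pairwise comparisons. No gene passed it in these comparisons (percent called 0), and the share of genes at an unadjusted p under 0.05 was 21.4 percent between AS and CT, 25.3 percent between DSR and AS and 8.65 percent between ASR and AS rats. Between ASR and CT it was 4.92 percent, between DSR and CT 4.63 percent, and between ASR and DSR 4.29 percent. DESeq2 on all groups called 869 genes in AS vs CT and 602 in DSR vs AS, and neither Bdnf nor Ntrk2 was among them.

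In AS vs CT, Bdnf had a log2 fold change of -1.38 (SE 0.65, 95% interval -2.73 to -0.03, unadjusted p = 0.0451, edgeR adjusted p = 0.223). In DSR vs AS it was 1.44 (SE 0.67, 0.05 to 2.83, unadjusted p = 0.0434, edgeR adjusted p = 0.185). Bdnf was thus lower in AS rats at an unadjusted p under 0.05 in both, as were 11.8 percent of all genes in AS vs CT, and 13.3 percent were likewise higher in DSR vs AS. The 2 comparisons share the AS libraries. By size alone, 0.578% of genes changed more than Bdnf in AS vs CT and 0.547% in DSR vs AS. Size does not account for the wide scatter of Bdnf. By edgeR's p, which does, it ranked 3298 of 16275 genes in AS vs CT and 3824 in DSR vs AS. At an unadjusted p under 0.05 and at least 1.5-fold, Bdnf was counted in both, beside 4.53 percent of genes in AS vs CT and 5.25 percent in DSR vs AS. At a log2 fold change over 1.5 in either direction it was counted in neither. Both wordings of the threshold occur in the sources.

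Between ASR and AS rats the log2 fold change of Bdnf was 0.74 (SE 0.65, -0.61 to 2.10, edgeR adjusted p = 0.718), in ASR vs CT it was -0.64 (SE 0.63, -1.94 to 0.67, edgeR adjusted p = 0.949) and in ASR vs DSR -0.69 (SE 0.65, -2.05 to 0.66, edgeR adjusted p = 0.854). DSR and CT rats were closest at 0.06 (SE 0.65, -1.29 to 1.40, edgeR adjusted p = 0.999). Fitted to only the 2 groups, ASR vs CT had a smaller SE (0.29) and an unadjusted p of 0.0420 with edgeR (adjusted p = 0.911) and 0.0267 with DESeq2 (adjusted p = 0.732), against 0.322 in the fit of all groups. The intervals from all groups include both no change and changes of more than 1.5-fold, so these data do not show that Bdnf was alike in those groups. The contrast of AS with the mean of the other groups was -1.19 (SE 0.57, -2.36 to -0.02, unadjusted p = 0.0473, edgeR adjusted p = 0.191), where 25.5 percent of genes had an unadjusted p under 0.05. The joint test of edgeR for any difference among the 4 groups had an adjusted p = 0.437 (unadjusted 0.146), with 15.6 percent of genes at an unadjusted p under 0.05.

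The fold changes above compare fitted mean counts, in which a rat with a high count weighs most. On the scale of mean log2 CPM, Bdnf was lower by a difference of -2.51 in AS than in CT rats (two-sided exact permutation test, p = 0.0260). The difference was 2.22 in DSR against AS (exact permutation p = 0.0628) and 1.86 in ASR against AS rats (exact permutation p = 0.0628), and the smallest p these sizes allow is 0.00216. It was -0.64 in ASR against CT (exact permutation p = 0.0779), -0.29 in DSR against CT (exact permutation p = 0.623) and -0.35 in ASR against DSR rats (exact permutation p = 0.558). DSR rats were therefore slightly above CT rats by fitted counts and slightly below them by mean logs, both within the spread. The 6 AS rats against the 17 others differed by -2.20 (exact permutation p = 0.00195). None of these p-values is adjusted for the other genes.

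Ntrk2 did not separate the groups in any comparison. Its log2 fold changes in the 6 pairwise comparisons lay between -0.02 and 0.04, with every 95% interval within -0.16 to 0.18, and edgeR adjusted p-values of 0.801 or more. For both shock-resistant groups together against CT and AS rats the log2 fold change was 0.02 (SE 0.05, -0.08 to 0.11, edgeR adjusted p = 0.927), and for Bdnf the same contrast gave 0.40 (SE 0.46, -0.55 to 1.35, edgeR adjusted p = 0.794), with 7.34 percent of genes at an unadjusted p under 0.05. This contrast of Bdnf was 1.05 without AS rat Grp7-L10 (unadjusted p = 0.0128, edgeR adjusted p = 0.499), 0.16 without DSR rat Grp7-R7, and 2.14 among Grp8 rats by themselves (unadjusted p = 0.00167, edgeR adjusted p = 0.866). The exact permutation p-values of Ntrk2 were 0.569 or more in the pairwise comparisons. The intervals of Ntrk2 leave out a 1.5-fold difference in total mRNA in either direction, and a shift between full-length and truncated forms was not measured.

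**Figure D3:**
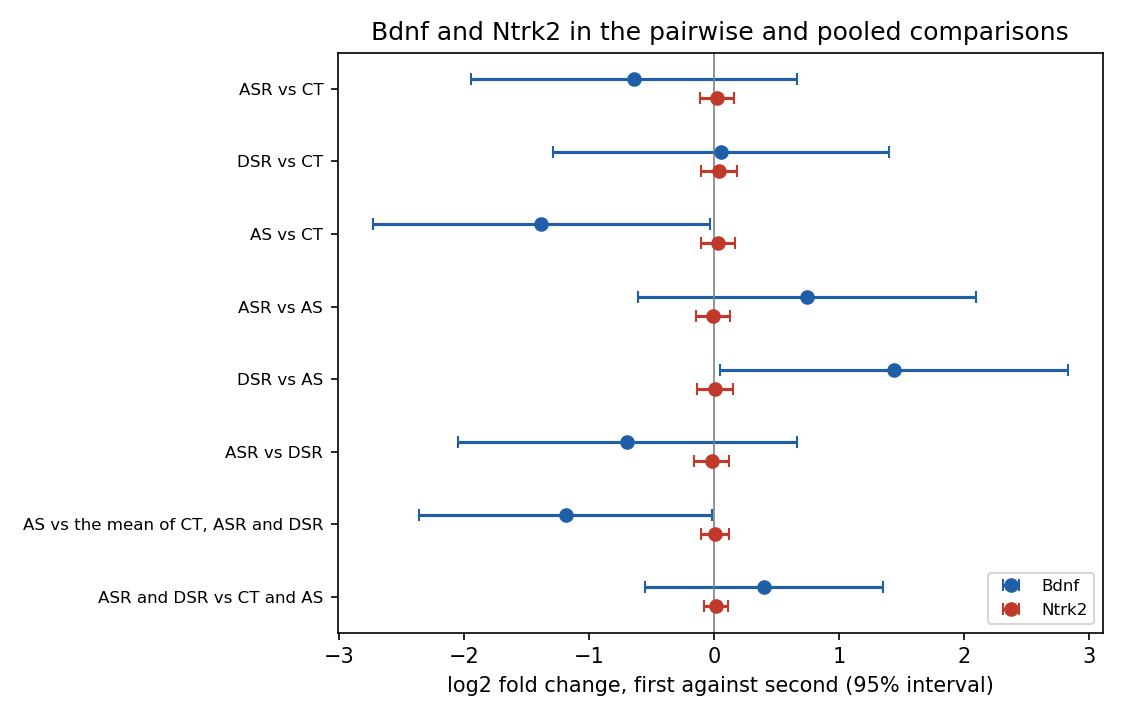
Log2 fold changes of Bdnf (blue) and Ntrk2 (red) with 95% intervals from edgeR's fit in the 6 pairwise and 2 pooled comparisons, first group against second. Intervals of Bdnf leave out 0 in AS vs CT, DSR vs AS and AS against the mean of the others, and all intervals of Ntrk2 include 0.

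A single rat set the size of the AS comparisons. Without AS rat Grp7-L10 the log2 fold change of Bdnf was -2.70 in AS vs CT (edgeR adjusted p = 0.00956), 2.75 in DSR vs AS (edgeR adjusted p = 0.0174) and 2.05 for ASR against AS rats (edgeR adjusted p = 0.141). The share of all genes that passed in the fits without this rat is not given here, so the values do not show that passing was particular to Bdnf. Leaving out any other rat kept the direction in these comparisons, with values down to -1.14 in AS vs CT (without AS rat Grp8-L5), 0.97 in DSR vs AS (without DSR rat Grp7-R7) and 0.50 for ASR against AS rats (without AS rat Grp8-L5). The unadjusted p in AS vs CT was under 0.05 in 16 of the 23 fits and in DSR vs AS in 15. In DSR vs CT the sign turned in 4 of the 23 fits, and ASR vs DSR moved from -0.69 to -0.22 without DSR rat Grp7-R7.

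**Figure D4:**
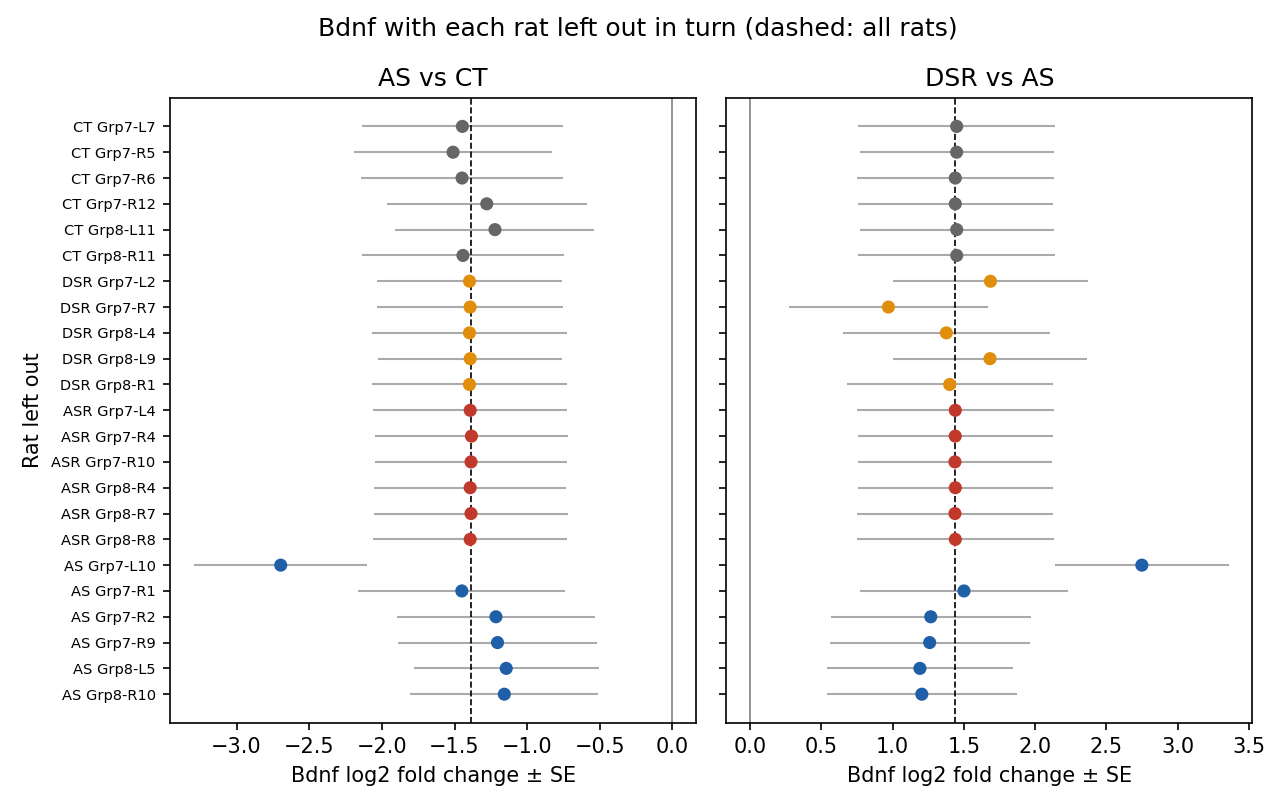
Bdnf log2 fold change ± SE from edgeR's fit in AS vs CT (left) and DSR vs AS (right) with each of the 23 rats left out in turn, colored by the group of that rat. Dashed lines mark all rats, and leaving out AS rat Grp7-L10 gives -2.70 and 2.75.

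The rat codes hold the number 7 or 8, which the labels do not explain. Among rats coded Grp8 the 2 AS rats had 0.253 and 0.301 CPM of Bdnf, the CT rats 7.53 and 13.9 CPM, the ASR rats 4.73 to 9.19 and the DSR rats 2.45 to 11.1. Among rats coded Grp7 the 4 AS rats ranged from 1.09 to 13.3 CPM, the CT rats from 5.35 to 12.2, the ASR rats from 2.99 to 5.34 and the 2 DSR rats had 2.68 and 19.5. AS rats were thus separate from the others within Grp8 and overlapped them within Grp7. Fitted by themselves, Grp8 rats gave a log2 fold change of -5.26 in AS vs CT (SE 0.84, edgeR adjusted p = 0.0316, 2 rats each) and Grp7 rats -0.69 (SE 0.72, edgeR adjusted p = 0.683, 4 rats each). In DSR vs AS the values were 4.85 (edgeR adjusted p = 0.0688) and 1.16 (edgeR adjusted p = 0.400), and for ASR against AS rats they were 4.70 (edgeR adjusted p = 0.0933) and -0.23 (edgeR adjusted p = 0.977). The difference between the 2 code numbers in the AS vs CT change was -4.57 (SE 1.46, unadjusted p = 0.00569, edgeR adjusted p = 1.00), in a test where 2.85 percent of genes had an unadjusted p under 0.05 and 0 were called. For Ntrk2 the DSR vs AS change was -0.15 in Grp7 and 0.19 in Grp8 rats, a difference of 0.33 (SE 0.14, unadjusted p = 0.0278, edgeR adjusted p = 0.676).

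Ligand and receptor were not clearly related across rats. Over all 23 rats Pearson's r between log2 CPM of Bdnf and Ntrk2 was -0.08 (permutation p = 0.703, adjusted over 5 relations 0.816) and Spearman's rho -0.29 (permutation p = 0.171, adjusted 0.285). Without the 2 rats farthest from the median of Bdnf, both of which were AS rats coded Grp8, r was -0.46 (permutation p = 0.0358, adjusted 0.179) and rho -0.51 (permutation p = 0.0182, adjusted 0.0912). After removal of group means r was -0.05 (permutation p = 0.816). Within Grp7 rats r was -0.42 (n = 13, permutation p = 0.150) and within Grp8 rats 0.16 (n = 10, permutation p = 0.668).

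Many genes varied over the rats in the way Bdnf did. Likeness was Pearson's r of log2 CPM over the 23 libraries. It is given as a description, and the cause of shared patterns was not tested. Closest was ENSRNOG00000030920 (chromosome 11, 86992399 to 87017115, minus strand) at r = 0.97, and 0.96 after removal of group means. It had 1.56 CPM in its lowest rat, AS Grp8-L5, and 42.4 in its highest, DSR Grp7-R7. Next was ENSRNOG00000005049 (chromosome 3, 47677720 to 47685902, plus strand) at r = 0.96. Of the 16274 other genes, 315 (1.94%) had an r over 0.8 with Bdnf and 12 under -0.8, and 132 of the 315 also passed 0.8 after removal of group means. Of the 315, 74 had a mean over 100 CPM. In 312 of them the lowest library was an AS library, in 233 that of AS rat Grp8-L5 or Grp8-R10. The highest was that of DSR rat Grp7-R7 in 199. Picking genes by their likeness to Bdnf in part fixes where they are low and high. Counts of the lowest and highest library over all genes are not given here. The counts above therefore only describe the 315 genes and do not test whether low levels in these AS rats were particular to Bdnf. The most opposite pattern was that of ENSRNOG00000012556 (r = -0.84).

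Over the 23 libraries as they were, Ntrk2 had fewer such companions, with 4 genes at an r over 0.8 and 9 under -0.8. After removal of group means, 34 genes were over 0.8 with Ntrk2 and 89 under -0.8. For Bdnf these counts were 138 and 8, so the contrast between the 2 genes holds only before that removal. The closest were ENSRNOG00000006030 (chromosome 4, 49941304 to 50140762, plus strand) at r = 0.84 and ENSRNOG00000008489 (chromosome 5) at r = 0.82, and the most opposite was ENSRNOG00000030871 (chromosome 15) at r = -0.85.

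**Figure D5:**
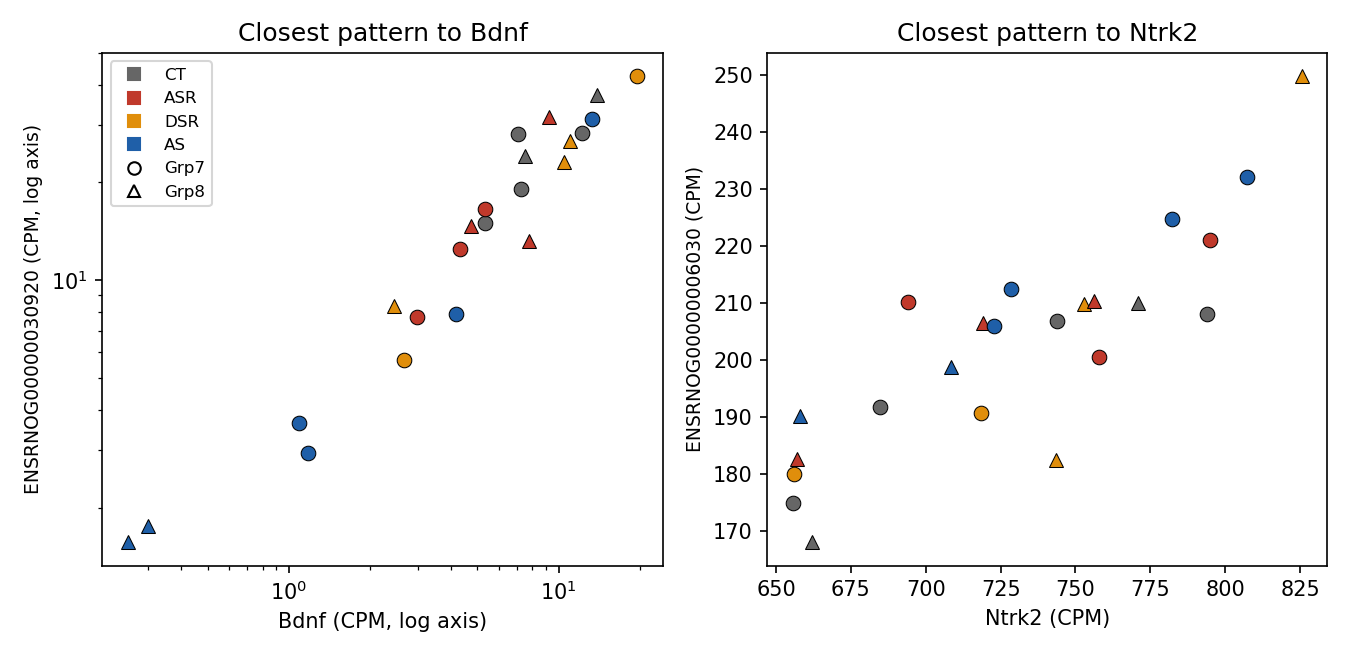
Left, Bdnf against ENSRNOG00000030920 in CPM on log axes. Right, Ntrk2 against ENSRNOG00000006030 in CPM on linear axes that do not start at 0. Each point is 1 of 23 rats, colored by group, with circles for Grp7 and triangles for Grp8; 4 AS rats hold the low end on the left and r is 0.97 and 0.84.

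Total counts per library ranged from 18967015 to 28137676, and every DSR library was deeper than every AS library. Mitochondrial genes took 11.6% to 19.6% of counts, with the highest share in AS rat Grp7-R1, which was not among the 4 lowest AS rats in Bdnf. The 2 rats with 6 Bdnf counts had total counts of 22759535 and 19921481, both within the range of the CT libraries. Markers that define striatal or other cells were not analysed here, because the files give identifiers without symbols, so their part in the differences was not tested. In bulk tissue, fewer cells that express Bdnf and less Bdnf RNA per cell cannot be told apart. The same holds for a difference in how much neighboring tissue the dissection took in, which was not tested.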

How the data were processed

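The authors extracted RNA from dissected dorsal striata and prepared libraries for paired-end sequencing. Per the labels' processing notes and the methods, reads were converted with bcl2fastq 2.17, trimmed with Trimmomatic 0.36, mapped to Rnor6.0 with STAR 2.5.2b, and uniquely mapped reads in exons were counted with featureCounts of Subread 1.5.2. The authors deposited these counts per gene and library as they were, with no normalization. The strand setting is not given in the sources used here.

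From these counts TMM factors, CPM, log2 CPM (prior count 2) and tests were computed with edgeR 4.0.16 in R 4.3.3. Genes were kept by filterByExpr (minimum count 10, minimum total 15), which left 16275 of 32552. All 4 groups entered 1 quasi-likelihood fit (19 residual degrees of freedom), and p-values were adjusted by Benjamini-Hochberg over all genes tested. Each rat is 1 replicate by the labels. The alternatives were DESeq2 1.42.0, fits of 2 groups, RLE factors, no filter, the code number as covariate or by itself, counts without mitochondrial genes and each rat left out. limma 3.58.1 on log2 CPM and the test between code numbers were added after the data were seen. In counts simulated for AS vs CT, with 16275 genes, edgeR recovered 79 of 100 genes changed 2-fold and 99 of 100 changed 4-fold. It also called 15 unchanged genes. Each simulated gene had the spread typical of its level, a coefficient of variation between rats of 0.214 at the level of Bdnf. The value fitted for Bdnf itself was 0.776, so these recoveries do not apply to Bdnf.

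The genes named by likeness followed a rule (highest and lowest r among genes with a mean of at least 1 CPM, at most 2 identifiers in each direction). The members, rules and lists were chosen with earlier results of these data known. Lists of neurotrophin, signaling and cell type marker genes were not analysed here, because identifiers could not be paired with symbols. Promoter windows come from RefSeq on GRCr8.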

Additional observations from a re-analysis of the deposited data

Results flagged for a closer look

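The Bdnf level of AS rat Grp7-L10, 13.3 CPM, stood apart from the other 5 AS rats, of which the next highest had 4.18 CPM. Its gap to that rat was 0.70 of the range of the group, above Dixon's 95% critical value of 0.625 for 6 samples. Of the 8 groups checked for the 2 genes, 1 was flagged, where chance gives 0.4. On the log2 scale the gap was 0.31 of the range, below that value, so the rat stands apart on the linear scale only.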

How the results depend on the processing

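No paired analysis was possible because the groups share no rat code. Of 76 alternative values for each gene, leave-one-out fits aside, 70 kept their direction and call for Bdnf and 68 for Ntrk2. Bdnf passed an adjusted p of 0.05 among Grp8 rats in AS vs CT (-5.26) and in AS against the mean of the others (-4.94), and with limma in the latter (-2.20, adjusted p = 0.0426). In these fits 86, 107 and 431 genes passed in all, and the Grp8 fits rest on 2 AS rats with 6 Bdnf counts each. Its sign turned in DSR vs CT among Grp8 rats (-0.42) and with limma (-0.29), and in ASR vs AS among Grp7 rats (-0.23). For Ntrk2 the sign turned among Grp8 rats in ASR vs CT (-0.0096), AS vs CT (-0.078), ASR vs AS (0.069) and AS against the mean (-0.11), and among Grp7 rats in DSR vs CT (-0.066), DSR vs AS (-0.15), ASR vs DSR (0.12) and the resistant groups against the rest (-0.044). The cause was not tested.

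With each rat left out, Bdnf ranged from -2.70 to -1.14 in AS vs CT, 0.97 to 2.75 in DSR vs AS, -2.50 to -0.95 in AS against the mean, -0.42 to 0.29 in DSR vs CT, 0.50 to 2.05 in ASR vs AS, -0.83 to -0.47 in ASR vs CT, -0.93 to -0.22 in ASR vs DSR and 0.16 to 1.05 for the resistant groups against the rest, and its joint F from 1.45 to 7.86 (without AS rat Grp7-L10, adjusted p = 0.0458). For Ntrk2 the ranges were -0.0052 to 0.054 in ASR vs CT, -0.0072 to 0.072 in DSR vs CT, -0.0091 to 0.054 in AS vs CT, -0.035 to 0.031 in ASR vs AS, -0.027 to 0.052 in DSR vs AS, -0.052 to 0.027 in ASR vs DSR, -0.028 to 0.031 in AS against the mean and -0.0034 to 0.036 for the resistant groups.

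Fitted to only the 2 groups, the unadjusted p of Bdnf was 0.0699 with edgeR and 0.0930 with DESeq2 in AS vs CT, 0.114 and 0.143 in DSR vs AS, and 0.0420 and 0.0267 in ASR vs CT. Calls over all genes depended on the tool. In AS vs CT, edgeR called 0, DESeq2 869 on all groups and 922 on 2, limma 263 and Grp8 rats 86. In DSR vs AS the counts were 0, 602 and 1731 by the same fits, and 32 among Grp8 rats. In AS against the mean, DESeq2 called 1241, limma 431 and Grp8 rats 107. Covariates from marker genes were not run, because symbols could not be matched. Few counts limit the precision of Bdnf in the lowest AS rats.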
